A study of Homo sapiens with 12 samples.

Results

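AP-1 is a family of dimeric transcription factors built from proteins of the FOS, JUN and ATF/BATF families, and 9 of its genes are described here: FOS, FOSB, FOSL1, FOSL2, JUN, JUNB, JUND, ATF3 and BATF3. They were chosen by gene symbol, and each symbol matched 1 of the 24331 features of an FPKM table (sequenced fragments per length of transcript and per total mapped in a library). Expression was measured by RNA-sequencing in MDA-MB-231, a human triple-negative breast cancer cell line, with 2 libraries for each of 6 conditions. WT cells and cells named KO (CRE deleted) in the labels, called ΔCRE below, were sampled after 0, 6 and 24 h with PMA, a phorbol ester that activates protein kinase C, and Ionomycin, a calcium ionophore. In ΔCRE cells CRISPR/Cas9 had removed the part of the core regulatory element (CRE) of the ETS1 promoter that holds NFAT and NF-κB sites. How many clones the ΔCRE libraries come from is not stated in the sources used here, so the deletion and a property of a clone cannot be told apart. The samples are called biological replicates, with no word on separate cultures, and p-values rest on the spread between such samples. Except in the separate fits, that spread was shared over the conditions as well as over the tested features.

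FOS proteins (FOS, FOSB, FOSL1, FOSL2) do not pair with each other and bind DNA as partners of JUN proteins, whereas JUN proteins (JUN, JUNB, JUND) also pair among themselves. The dimers bind the TPA response element, named after PMA itself, and related cAMP response elements. PMA acts through protein kinase C and the MAP kinases, which raise the transcription of FOS and JUN genes within minutes and phosphorylate their proteins. FOS transcripts are known to be short-lived, and the first sampling of stimulated cells, at 6 h, is later than the usual peak of such immediate early genes. FOSL1 is known for its high level in invasive, mesenchymal-like breast cancer cells such as these. The levels below are of RNA and carry no information on phosphorylation or protein.

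Short stretches of the promoters are shown because several of these genes are known to be controlled through cAMP response elements in their own promoters. RefSeq promoter windows (GRCh38.p14, from 250 bases before to 50 bases after the start) were at hand for 7 of the 9 genes, in 8 windows, as ATF3 has 2. FOSL1 and BATF3 had none. The motif TGACG, the core of a cAMP response element, was searched on both strands and lay in 6 of the 8 windows, against 24.6% of 35116 promoter windows of the same length. The letters and motifs were picked with these windows in view, and a match is a description, not a bound site. The match nearest to the start that reads TGACG on the gene's strand is shown with 20 bases on either side for FOS, FOSB, FOSL2, JUN, JUNB and JUND, 5′ to 3′ on the strand of the gene, with TGACG in capitals.
FOS: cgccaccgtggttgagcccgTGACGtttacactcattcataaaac
FOSB: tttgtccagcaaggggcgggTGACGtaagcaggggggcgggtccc
FOSL2: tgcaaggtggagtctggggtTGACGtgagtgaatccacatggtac
JUN: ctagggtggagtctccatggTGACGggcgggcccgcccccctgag
JUNB: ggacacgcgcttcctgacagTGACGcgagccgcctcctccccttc
JUND: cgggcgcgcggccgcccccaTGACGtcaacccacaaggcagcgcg

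Each stretch was placed through its whole promoter window, which had a single exact match on its chromosome in GRCh37, the build of hg19. They lie at chr14:75745447-75745491 (FOS), chr19:45971174-45971218 (FOSB), chr2:28615639-28615683 (FOSL2) and chr19:12902143-12902187 (JUNB) on the plus strand, and at chr1:59249818-59249862 (JUN) and chr19:18392608-18392652 (JUND) on the minus strand. The motif begins 64 bases before the start in FOS, 60 in FOSB, 66 in FOSL2, 123 in JUN, 137 in JUNB and 200 in JUND. The longer element TGACNTCA, with any base at N, lay in 3 of the 8 windows against 7.72% of all windows: as TGACATCA 67 bases before the start of JUN and 123 bases before 1 start of ATF3, and as TGACGTCA in JUND, where it overlaps the capitals above. The TPA response element TGANTCA lay in 1 of the 8 windows, that of FOSL2 (TGACTCA, from base 5 after the start), against 7.71% of all windows. The CArG box, the site of serum response factor, was found in 0 of the 8 windows and in 1.29% of all windows. That says only that these letters are not in these windows.

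Sequencing depth cannot be read from FPKM and is unknown for the 12 libraries. In 11 of them the sum of FPKM was between 566255 and 651080. The library labelled ΔCRE 0 h replicate 1 had 1423335, with a correlation to its replicate of 0.774, against 0.98 to 0.986 between the other replicates. Of 13 gut epithelium markers, 13 were at 1 FPKM or more in that library and 11 were under 1 in all of the other 11 libraries. Its values are given apart and it enters no test, which leaves 1 library for ΔCRE cells at 0 h, with which no test was made. The cell line's label was checked with VIM, CD44, CAV1, AXL and MSN, which were at 1 FPKM or more in all 11 libraries, and with 5 genes known to be low in it. Of those, ESR1, PGR and CDH1 were under 1 in all 11, whereas GATA3 was at 1.76 to 3.32 FPKM and FOXA1 at 0.635 to 1.79. ETS1, the targeted gene, had 24.0 and 23.7 FPKM in unstimulated WT cells, 139 and 145 after 6 h, and 36.2 and 39.7 after 24 h. In ΔCRE cells it was at 16.5 in replicate 2 at 0 h, 62.8 and 62.2 at 6 h, and 29.3 and 30.7 at 24 h. It was lower in ΔCRE than in WT cells by 2.28-fold at 6 h and by 1.27-fold at 24 h (limma on log2(FPKM + 1), adjusted p = 2.0e-05 and 0.0153, n = 2 each).

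The 9 genes were expressed at very different levels. FPKM is per transcript length, so the genes can be compared within a library. In WT cells at 0 h FOSL1 had the highest mean level, 102 ± 2.12 FPKM (SD, n = 2), followed by FOSL2 at 55.8 ± 3.93, JUN at 22.5 ± 1.69, JUND at 16.8 ± 0.600, JUNB at 13.4 ± 0.618 and BATF3 at 10.6 ± 0.130. The libraries of neighbours in this order did not overlap. ATF3 at 0.978 ± 0.177 and FOS at 1.16 ± 0.578 overlapped, and FOSB had the lowest level, 0.157 ± 0.0830. The last 3 lay near or below 1 FPKM, so that the prototype of the family, FOS, was among the least abundant members at each of the times sampled.

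**Figure D1:**
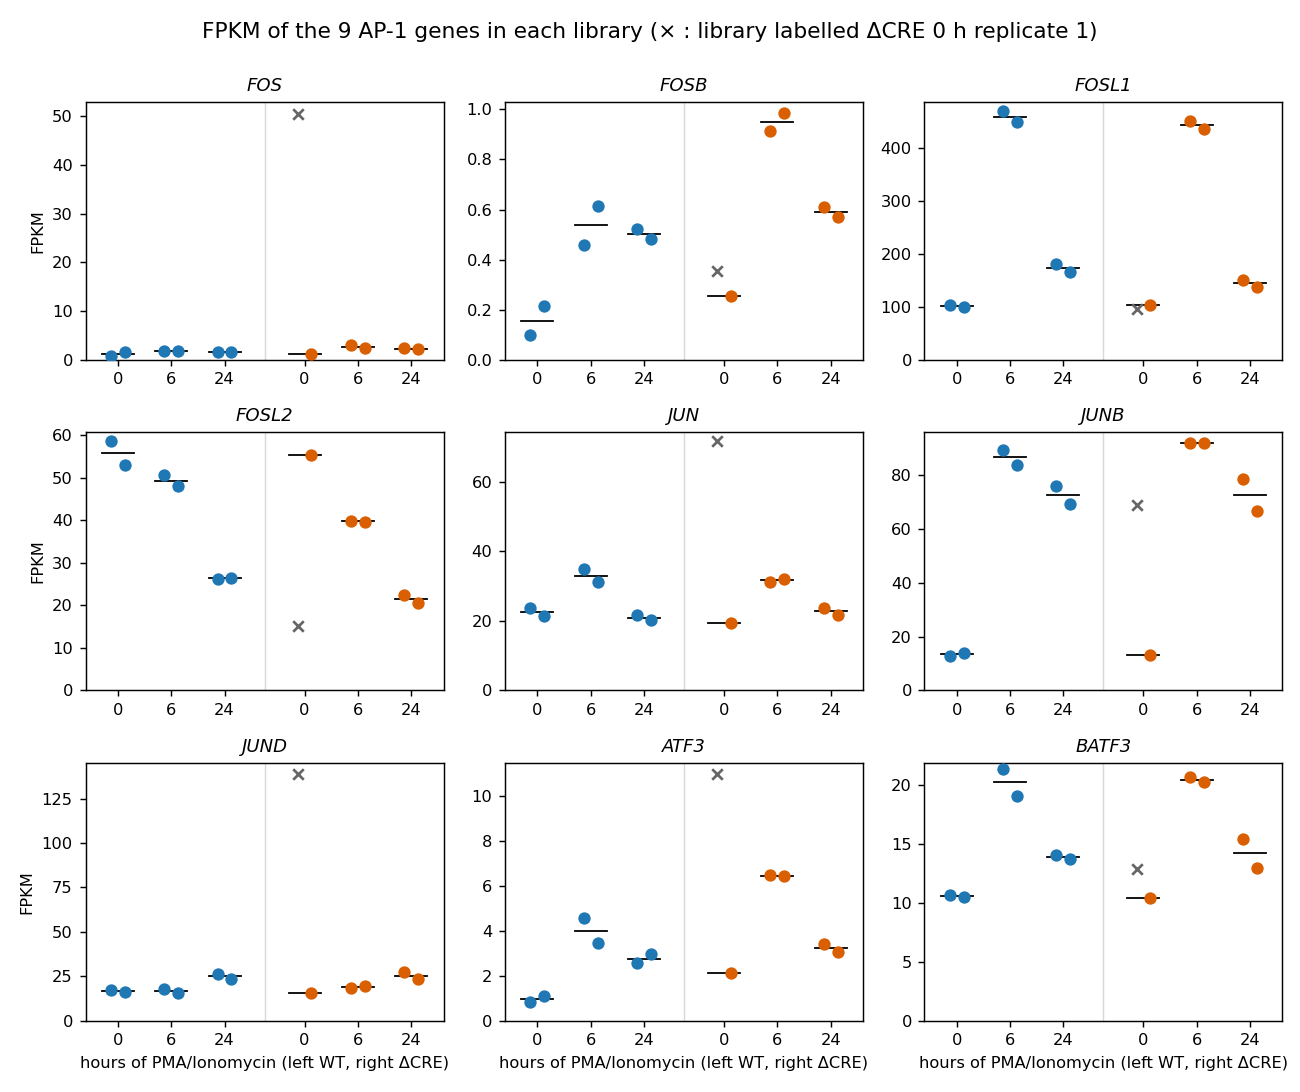
FPKM (y axis, linear, from 0) of each AP-1 gene in each of the 12 libraries against hours of PMA/Ionomycin (x axis), with WT cells on the left in blue and ΔCRE cells on the right in orange. Points are libraries, bars are means, and the cross is the library labelled ΔCRE 0 h replicate 1, which is in no mean. FOSL1 and JUNB rose several-fold at 6 h in WT cells, FOSL2 was lowest at 24 h, and the cross lay far above the other points for FOS, JUN and JUND.

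The comparison of WT cells at 6 h with 0 h asks which AP-1 genes differ after 6 h with PMA/Ionomycin. There were no unstimulated libraries at 6 or 24 h. Stimulation and time in culture therefore cannot be told apart in any comparison between times. JUNB, FOSL1, ATF3, BATF3 and JUN rose. No member was called lower in the fit described, though FOSL2 was with quantile normalization (-0.26, adjusted p = 0.0059), TPM (-0.30, adjusted p = 0.0030) and the replicate number as a block (adjusted p = 0.0212). Of 8 members tested (those with a mean of at least 1 FPKM, which leaves out FOSB), 5 passed an adjusted p of 0.05 upward and 0 downward, while 44.4% of the 11256 tested features were called in either direction (23.3% higher, 21.1% lower). The median log2 difference was 0.70 over the 8 members and -0.00 over all tested features.

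Among the FOS family, FOSL1 (FRA1, chr11:65659692-65667997 in hg19), which lacks the transactivation domain of FOS, was at 104 and 101 FPKM in WT cells at 0 h and at 468 and 449 at 6 h. Both libraries at 6 h lay far above both at 0 h, a 4.49-fold difference of means (log2 difference 2.16, SE 0.067, adjusted p = 8.0e-08). FOSL2 (FRA2, chr2:28615779-28637516), its closest relative, was at 58.6 and 53.0 FPKM at 0 h and at 50.7 and 48.0 at 6 h. The 6 h libraries were the lower ones, but the log2 difference of -0.17 (95% interval -0.32 to -0.02) did not pass the threshold (adjusted p = 0.0619). FOS (chr14:75745481-75748937) was at 0.751 and 1.57 FPKM at 0 h and at 1.72 and 1.86 at 6 h. The libraries did not overlap, yet the 2 at 0 h differed from each other by more than 1 of them differed from those at 6 h, and the log2 difference of 0.39 (SE 0.17) had an adjusted p of 0.0879. Without WT 0 h replicate 2 both calls changed: the FOS difference was 0.67 with an adjusted p of 0.0063 and the FOSL2 difference -0.24 with an adjusted p of 0.0330. FOSB (chr19:45971253-45978437), a FOS-like activator, was at 0.0982 and 0.216 FPKM at 0 h and at 0.458 and 0.615 at 6 h. These 4 values stayed below 1 FPKM, and in the fit with no filter on low values, which tested FOSB too, the log2 difference was 0.41 (adjusted p = 0.0041).

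Among the JUN family, JUNB (chr19:12902310-12904125), a weaker activator than JUN that can oppose it, was at 12.9 and 13.8 FPKM at 0 h and at 89.4 and 84.0 at 6 h. Its 6.49-fold difference of means was the highest of the 8 tested members (log2 difference 2.61, SE 0.085, adjusted p = 1.2e-07). JUN (chr1:59246463-59249785), the strongest activator of the family, was at 23.7 and 21.3 FPKM at 0 h and at 35.0 and 31.1 at 6 h. It rose by 1.47-fold (log2 difference 0.54, SE 0.080, adjusted p = 9.4e-04), with both libraries at 6 h above both at 0 h. JUND (chr19:18390563-18392432), known for steady expression and links to quiescence, was at 17.2 and 16.4 FPKM at 0 h and at 18.0 and 15.7 at 6 h. These values overlapped, and the 95% interval of the log2 difference ran from -0.22 to 0.22 (adjusted p = 0.998).

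The other 2 members are bZIP proteins that pair with JUN proteins. ATF3 (chr1:212738676-212794119), a stress-induced factor that mostly represses as a homodimer, was at 0.853 and 1.10 FPKM at 0 h and at 4.55 and 3.47 at 6 h. It rose by 4.11-fold in mean FPKM, with a log2(FPKM + 1) difference of 1.34 (SE 0.12, adjusted p = 5.2e-05), a scale that understates the change of a gene near 1 FPKM. BATF3 (chr1:212859759-212873327), which has little beyond its bZIP domain and is best known in dendritic cells, was at 10.6 and 10.5 FPKM at 0 h and at 21.3 and 19.1 at 6 h. It rose by 1.91-fold (log2 difference 0.87, SE 0.086, adjusted p = 8.8e-05).

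From 6 h to 24 h most of the tested members declined in WT cells, though JUNB was still 5.45-fold above its level at 0 h. Against 6 h, FOSL1, FOSL2, JUN, BATF3, ATF3 and JUNB were lower and JUND was higher, which makes 6 of 8 lower and 1 of 8 higher, where 46.8% of all tested features were called (26.3% lower, 20.5% higher). The median log2 difference was -0.46 over the members and -0.04 over all tested features. FOSL1 was at 181 and 165 FPKM at 24 h, 2.65-fold below its level at 6 h (log2 difference -1.40, adjusted p = 3.1e-06). FOSL2 was at 26.1 and 26.5 FPKM, 53.3% of its level at 6 h (log2 difference -0.88, adjusted p = 2.9e-05). In both genes the libraries of the 2 times were far apart. JUN was at 21.6 and 20.2 FPKM, a log2 difference of -0.63 (adjusted p = 4.0e-04), and BATF3 was at 14.04 and 13.72, a log2 difference of -0.51 (adjusted p = 0.0017). JUND, with 26.6 and 23.7 FPKM at 24 h, was the member that rose between the 2 times, by 1.49-fold (log2 difference 0.55, SE 0.097, adjusted p = 0.0020). FOS was at 1.66 and 1.58 FPKM at 24 h and its log2 difference of -0.09 did not pass (adjusted p = 0.690).

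The decline of JUNB and ATF3 from 6 h to 24 h passed the threshold less firmly. JUNB was at 76.1 and 69.4 FPKM at 24 h, 83.9% of its level at 6 h (log2 difference -0.25, SE 0.085, adjusted p = 0.0390), and ATF3 was at 2.56 and 2.95 (log2 difference -0.41, SE 0.12, adjusted p = 0.0222). For JUNB the call was lost without any 1 of the WT libraries at 6 and 24 h or the ΔCRE libraries at 6 h. The log2 difference ran from -0.32 to -0.18 when each of 11 libraries was left out. The call was also lost with quantile normalization (-0.09, adjusted p = 0.354) and TPM (-0.13, adjusted p = 0.214). With no filter the adjusted p was 0.0652, and with eBayes without trend it was 0.0502. For ATF3 it was lost without WT 6 h replicate 1 (-0.25, adjusted p = 0.144) and without WT 24 h replicate 1 (-0.33, adjusted p = 0.126), and also with TPM (-0.35, adjusted p = 0.0805) and a separate fit (adjusted p = 0.0584).

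Set against unstimulated WT cells, 5 of 8 members were higher and 1 was lower at 24 h, where 54.6% of all tested features were called (26.5% higher, 28.2% lower). This comparison shares its 0 h libraries with that at 6 h. JUNB was still 5.45-fold above its level at 0 h (log2 difference 2.36, SE 0.085, adjusted p = 2.8e-07). ATF3 was 2.82-fold and FOSL1 1.70-fold above it, with log2 differences of 0.93 and 0.76 (adjusted p = 3.0e-04 and 3.8e-05). JUND and BATF3 were higher by log2 differences of 0.55 and 0.37 (adjusted p = 0.0016 and 0.0069). FOSL2 alone of the 8 was called lower, at 47.2% of its level at 0 h (log2 difference -1.05, SE 0.066, adjusted p = 5.5e-06). JUN was not detectably different from its unstimulated level, with a 95% interval of the log2 difference from -0.28 to 0.09 (adjusted p = 0.326), and FOS did not pass (0.31, adjusted p = 0.154). Without WT 0 h replicate 2 the FOS difference was 0.58 with an adjusted p of 0.0086. FOSB was at 0.524 and 0.484 FPKM at 24 h, above both libraries at 0 h.

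**Figure D2:**
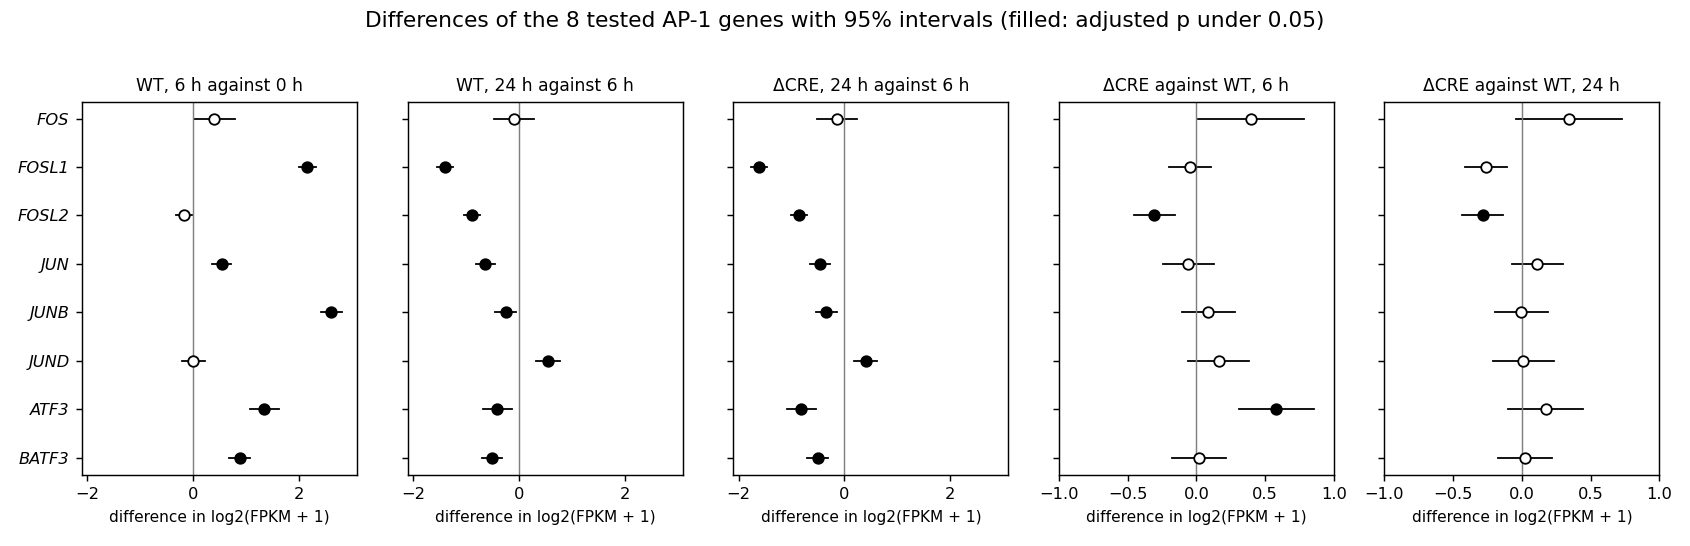
Differences in log2(FPKM + 1) (x axes, with another range in the last 2 panels) of the 8 tested AP-1 genes (y axis) in 5 comparisons. Points are limma estimates from 11 libraries, lines are their 95% intervals, and filled points have an adjusted p under 0.05. The differences between times reach 2.61 (JUNB), while those between ΔCRE and WT cells stay between -0.31 (FOSL2 at 6 h) and 0.58 (ATF3 at 6 h).

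These shifts changed the make-up of the families. In WT cells at 0 h FOSL1 made up 63.5% and 64.7% of the summed FPKM of the FOS family and FOSL2 made up 36.0% and 34.1%. At 6 h FOSL1 held 89.9% in both libraries and FOSL2 9.73% and 9.61%, and at 24 h FOSL1 still held 86.5% and 85.2%. FOS and FOSB together stayed near 1% of the family sum or below it in WT cells. The sum itself went from 163 and 155 FPKM at 0 h to 521 and 499 at 6 h and 210 and 193 at 24 h. In the JUN family JUN led at 0 h with 44.0% and 41.4%, JUNB held 24.0% and 26.8% and JUND 32.0% and 31.8%. At 6 h JUNB held 62.8% and 64.2% and JUN 24.6% and 23.8%. At 24 h JUNB held 61.2% in both libraries, and JUND, with 21.4% and 20.9%, was above JUN with 17.4% and 17.8%. The family sum was 53.8 and 51.5 FPKM at 0 h, 142 and 131 at 6 h, and 124 and 113 at 24 h. The shares are a description with no test, and multiplying all values of a library by 1 factor leaves them as they are.

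**Figure D3:**
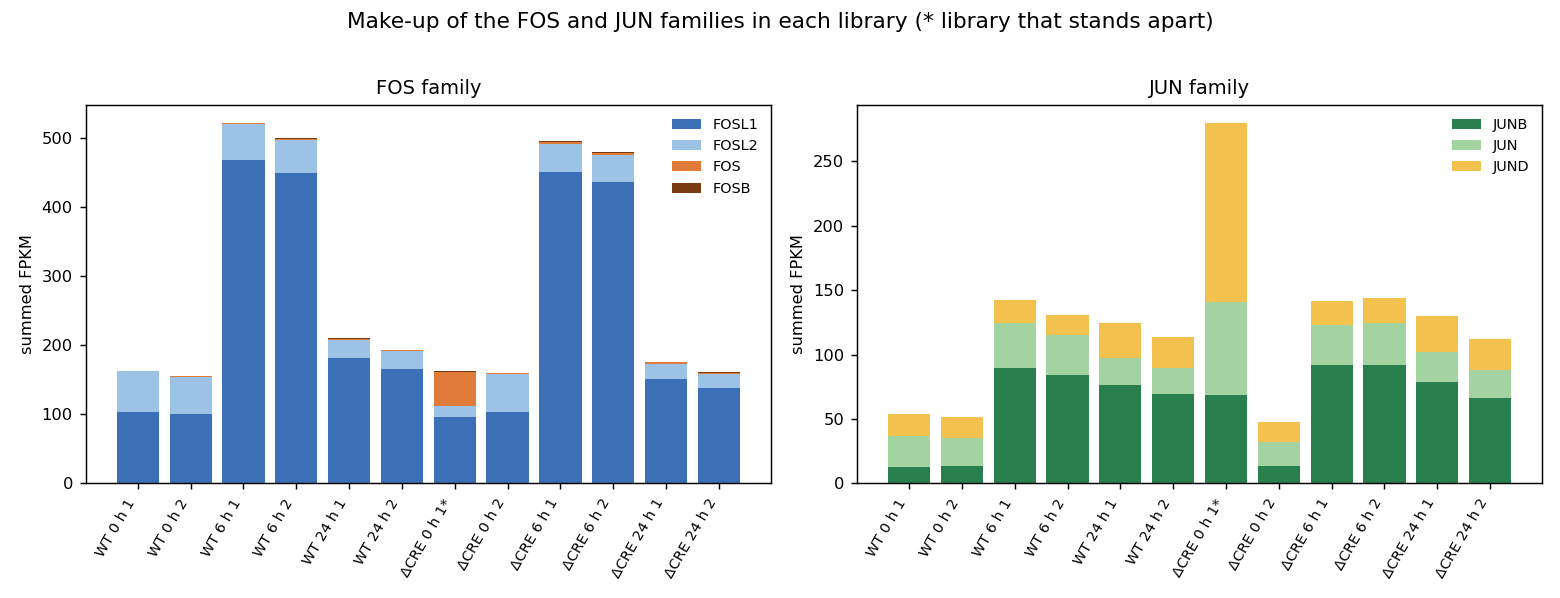
Summed FPKM (y axis, from 0) of the FOS family (left) and the JUN family (right) in each of the 12 libraries (x axis), stacked by gene. The star marks the library labelled ΔCRE 0 h replicate 1. FOSL1 fills most of each FOS bar at 6 and 24 h, JUNB most of each JUN bar at those times, and FOS is a visible part of the FOS bar only in the starred library.

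ΔCRE cells without stimulation were represented by replicate 2 alone, so the values are given without a test. FOSL1 was at 103 FPKM there, FOSL2 at 55.4, JUNB at 13.3, BATF3 at 10.4 and FOS at 1.09, within the range of the 2 WT libraries or within 0.5 FPKM of it. JUN at 19.3 and JUND at 15.5 were below both WT libraries. ATF3, at 2.14 FPKM, was 2.19 times the WT mean, and FOSB was at 0.254. FOSL1 held 64.5% of the FOS family and JUNB 27.6% of the JUN family, shares like those of WT cells. From this library to 6 h the mean FPKM of JUNB went up 6.94-fold, that of FOSL1 4.30-fold and that of FOSB 3.74-fold. For ATF3 it went up 3.02-fold, for FOS 2.45-fold, for BATF3 1.97-fold, for JUN 1.64-fold and for JUND 1.22-fold. The mean of FOSL2 at 6 h was 71.7% of its value in this library.

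The comparison of ΔCRE with WT cells at 6 h asks how AP-1 genes differ between the cell types after stimulation. ATF3 was higher and FOSL2 lower in ΔCRE cells, and the other 6 members did not pass. Called members were 2 of 8, against 9.83% of all tested features (3.62% higher, 6.22% lower). The 1107 features behind that share became 321 without WT 6 h replicate 1, 411 without WT 6 h replicate 2, 680 without ΔCRE 6 h replicate 1 and 411 without ΔCRE 6 h replicate 2. ATF3 was at 6.49 and 6.42 FPKM in ΔCRE cells and at 4.55 and 3.47 in WT cells, 1.61-fold higher (log2 difference 0.58, SE 0.12, adjusted p = 0.0198). Before stimulation ATF3 was at 2.14 FPKM in ΔCRE replicate 2, against 0.853 and 1.10 in WT cells. FOSL2 was at 39.9 and 39.5 FPKM against 50.7 and 48.0, 80.5% of the WT level (log2 difference -0.31, SE 0.066, adjusted p = 0.0233). Neither pair of groups overlapped. Non-overlap alone is common with 2 libraries a group: 29.0% of all tested features lay higher and 25.6% lower in this way.

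Leaving out single libraries ended both calls, and so did a fit without the spread shared with the other conditions. FOSL2 was not called without WT 6 h replicate 1 (-0.27, adjusted p = 0.162), WT 6 h replicate 2 (-0.34, 0.0747), ΔCRE 6 h replicate 1 (-0.31, 0.0813) or ΔCRE 6 h replicate 2 (-0.30, 0.113). ATF3 was not called without WT 6 h replicate 2 (0.43, adjusted p = 0.113), ΔCRE 6 h replicate 1 (0.57, 0.0818) or ΔCRE 6 h replicate 2 (0.59, 0.0953), but was called without WT 6 h replicate 1. With only the 4 libraries compared in the fit the adjusted p was 0.0860 for ATF3 and 0.0559 for FOSL2.

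FOSL1, which was the most abundant member in both cell types at 6 h, was at 451 and 436 FPKM in ΔCRE cells against 468 and 449 in WT cells. The ranges overlapped, and the 95% interval of the log2 difference was -0.20 to 0.10. JUNB was at 91.9 and 92.2 FPKM against 89.4 and 84.0, with an interval of -0.11 to 0.28. For JUN, at 31.1 and 32.2 FPKM against 35.0 and 31.1, the interval was -0.24 to 0.13, and for BATF3, at 20.7 and 20.2 against 21.3 and 19.1, it was -0.18 to 0.21. In these 4 genes no difference was detected, and the intervals give the sizes that remain possible. FOS was at 3.01 and 2.36 FPKM in ΔCRE cells, above both WT libraries, with a log2 difference of 0.40 and an interval of 0.01 to 0.78 (adjusted p = 0.195). JUND, at 18.2 and 19.6 FPKM, had a log2 difference of 0.16 (adjusted p = 0.358). FOSB was at 0.913 and 0.987 FPKM, above both WT libraries, and with no filter on low values its log2 difference was 0.35 (adjusted p = 0.0319). FOSB was tested in that setting alone, so whether its call holds without single libraries was not tested.

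At 24 h FOSL2 was again lower in ΔCRE cells, 1 of 8 members against 6.33% of all tested features (3.97% lower, 2.35% higher). Those 712 features became 165 and 235 without WT 24 h replicate 1 or 2 and 301 and 178 without ΔCRE 24 h replicate 1 or 2. It was at 22.3 and 20.5 FPKM against 26.1 and 26.5 in WT cells, 81.5% of the WT level (log2 difference -0.28, SE 0.066, adjusted p = 0.0399). The groups did not overlap (25.0% of all tested features lay lower and 26.8% higher without overlap), but the call was lost without any 1 of the 8 libraries at 6 or 24 h, with log2 differences between -0.34 and -0.23 and adjusted p between 0.0623 (without ΔCRE 6 h replicate 2) and 0.227 (without ΔCRE 24 h replicate 2). FOSL1 was at 151 and 137 FPKM against 181 and 165, both below both WT libraries, and just missed the threshold (log2 difference -0.26, SE 0.067, adjusted p = 0.0557). It passed when libraries were scaled otherwise, with adjusted p = 0.0102 after quantile normalization and 0.0143 in TPM. ATF3 was at 3.42 and 3.05 FPKM against 2.56 and 2.95, a log2 difference of 0.17 with an interval of -0.10 to 0.45 (adjusted p = 0.467). FOS was at 2.40 and 2.25 FPKM, above both WT libraries (0.34, adjusted p = 0.288). JUNB, at 78.7 and 66.6 FPKM, JUND, at 27.3 and 23.4, and BATF3, at 15.4 and 12.9, overlapped the WT libraries, with log2 differences of -0.00, 0.01 and 0.02. JUN was at 23.7 and 21.7 FPKM, with a log2 difference of 0.11 (adjusted p = 0.476). FOSB was at 0.609 and 0.572 FPKM against 0.524 and 0.484 in WT cells. In the limma fit with no filter on low values its log2 difference was 0.08 (adjusted p = 0.608).

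The change from 6 h to 24 h could be compared between the cell types, since these 4 groups share no library. In ΔCRE cells 6 of 8 members were lower and 1 was higher at 24 h, with 49.6% of all tested features called (27.5% lower, 22.1% higher). The called members had the same directions as in WT cells, with JUND higher by a log2 difference of 0.40 (adjusted p = 0.0090) and FOSL1, FOSL2, ATF3, BATF3, JUN and JUNB lower by -1.62, -0.86, -0.82, -0.50, -0.46 and -0.34. JUND was not called without ΔCRE 6 h replicate 1 (0.35, adjusted p = 0.0571) or ΔCRE 24 h replicate 1 (0.29, 0.0646), nor JUNB without ΔCRE 24 h replicate 2 (-0.22, adjusted p = 0.0616). In the test of the difference between the cell types (interaction), 0 of the 8 members were called, as were 18 of all 11256 features (0.160%), while 786 features had an unadjusted p under 0.05. Among those were 2 members, ATF3 with a steeper decline in ΔCRE cells (-0.41, SE 0.17, unadjusted p = 0.0411, adjusted p = 0.697) and FOSL1 (-0.22, SE 0.094, unadjusted p = 0.0499, adjusted p = 0.711). ETS1 itself was among the 18, with a decline that was less steep in ΔCRE cells (0.84, adjusted p = 0.0247).

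The other bZIP genes that AP-1 proteins can pair or compete with were followed in a list of 31 genes, of which 22 were tested. In WT cells at 6 h against 0 h 9 rose and 2 fell (11 of 22 called, near the 44.4% of all tested features), with a median log2 difference of 0.20. CEBPB, a C/EBP family activator of inflammatory genes, rose from 23.5 and 22.0 to 118 and 110.1 FPKM (log2 difference 2.27, adjusted p = 4.6e-06). MAFF and MAFG, small MAF proteins without an activation domain, rose by log2 differences of 1.47 and 0.98 (adjusted p = 3.4e-07 and 7.5e-06), and DDIT3 (CHOP), an inhibitor of C/EBP proteins, by 1.32 (adjusted p = 1.7e-06). Between ΔCRE and WT cells at 6 h, 2 were higher and 1 was lower (13.6% called, against 9.83% of all features). DDIT3 was at 84.8 and 84.2 FPKM against 52.7 and 55.9 (log2 difference 0.63, adjusted p = 0.0011), ATF5 was higher by 0.30 (adjusted p = 0.0414) and CEBPD lower by a log2 difference of -0.75 (adjusted p = 0.0364). DDIT3 was called without any 1 of the 11 libraries, ATF5 was not without any 1 of the 4 libraries at 6 h or the 2 ΔCRE libraries at 24 h (adjusted p from 0.0637 to 0.185), and CEBPD was not without either WT library at 0 or 6 h, ΔCRE 6 h replicate 1 or ΔCRE 24 h replicate 2 (0.0511 to 0.215). At 24 h 0 of the 22 were called, against 6.33% of all features.

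Of the kinases that carry the PMA signal to AP-1, all 24 listed were tested, and 8 rose and 6 fell in WT cells at 6 h (58.3% called, against 44.4% of all features), with a median log2 difference of 0.13. The 14 called became 9 without WT 0 h replicate 2, WT 6 h replicate 1 or WT 6 h replicate 2. MAP2K3, a kinase upstream of p38, rose from 35.7 and 33.2 to 165 and 154 FPKM (log2 difference 2.18, adjusted p = 3.1e-08). MAP2K6, its close relative, went the other way, from 3.04 and 2.83 to 0.325 and 0.288 FPKM (log2 difference -1.59, adjusted p = 1.5e-05). MAP3K1, upstream of JNK, fell by 0.69 on the log2 scale and MAP2K1 (MEK1), upstream of ERK, rose by 0.62 (adjusted p = 9.1e-04 and 2.7e-05). Between the cell types 2 of 24 were called at 6 h (8.33%, against 9.83% of all features) and 3 at 24 h (12.5%, against 6.33%). In ΔCRE cells MAP2K3 was lower than in WT cells at both times, by log2 differences of -0.32 at 6 h and -0.52 at 24 h (adjusted p = 0.0116 and 0.0020). MAPK9 (JNK2), which phosphorylates JUN, was higher at both, by 0.33 and 0.30 (adjusted p = 0.0200 and 0.0379), and RPS6KA2 was lower at 24 h by a log2 difference of -0.51 (adjusted p = 0.0425). MAP2K3 at 24 h was called without any 1 library. The other 4 calls were lost without single libraries. The adjusted p then went up to 0.0987 for MAP2K3 (lost without WT 6 h replicate 1 or either ΔCRE library at 6 h), to 0.148 and 0.235 for MAPK9 at 6 h and 24 h (lost without any 1 of the 4 libraries at 6 h, and at 24 h without any 1 of the 8 stimulated libraries) and to 0.258 for RPS6KA2 (lost without any 1 of the 4 libraries at 24 h or of the 4 WT libraries at 0 and 6 h).

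Among 11 transcription factors that act at the FOS and JUN promoters, 6 rose and 3 fell in WT cells at 6 h (81.8% called, against 44.4% of all features), with a median log2 difference of 0.23. ELK3, a ternary complex factor, rose by 0.85, STAT3 by 0.69 and MEF2D by 0.49, while MKL2, a coactivator of serum response factor, fell by 0.53 on the log2 scale (adjusted p = 1.8e-05, 5.4e-05, 7.2e-04 and 0.0012). ELK3 and STAT3 (18.2% of the list, against 9.83% of all features) were lower in ΔCRE cells at 6 h, by log2 differences of -0.49 and -0.32 (adjusted p = 0.0031 and 0.0160), and 0 of the 11 were called at 24 h (6.33% of all features). STAT3 was not called without WT 6 h replicate 1, WT 6 h replicate 2 or ΔCRE 6 h replicate 2 (adjusted p = 0.109, 0.0831 and 0.0987), whereas ELK3 was called without any 1 library. Of 12 genes for the turnover and binding of FOS and JUN, 3 rose and 1 fell in WT cells at 6 h (33.3% called, below the 44.4% of all features). ZFP36 (tristetraprolin), which promotes decay of AU-rich transcripts, FOS among them, rose from 3.31 and 2.85 to 12.8 and 13.6 FPKM (log2 difference 1.80, adjusted p = 3.8e-06) and its relative ZFP36L1 rose by 0.94 (adjusted p = 1.7e-05). ZFP36L2, of the same family, fell by 0.47 on the log2 scale (adjusted p = 6.8e-04). ZFP36L2 was the 1 gene of this list called between the cell types (8.33% at 6 h and 0 of 12 at 24 h, against 9.83% and 6.33% of all features), higher in ΔCRE cells at 6 h by 0.39 (adjusted p = 0.0098), but not without WT 6 h replicate 1, WT 6 h replicate 2 or ΔCRE 6 h replicate 2 (0.0764, 0.0607 and 0.0531).

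Genes known as AP-1 targets had the largest median difference of the 5 lists in WT cells at 6 h. Of 34 listed, 30 were tested, and 26 rose and 1, DUSP1, fell in WT cells at 6 h (90.0% called, against 44.4% of all features), with a median log2 difference of 1.69. DUSP1 falls outside the rule for named genes and was named after its value was seen. IL8 (CXCL8), a chemokine for neutrophils, rose from 1.76 and 1.49 to 1605 and 1594 FPKM (log2 difference 9.25, adjusted p = 1.4e-10). IL1B, PTGS2 (cyclooxygenase 2) and CCL2 rose by log2 differences of 6.72, 4.62 and 4.57. Between ΔCRE and WT cells the list split, 6 h giving 4 higher and 6 lower genes, 24 h giving 10 and 6, and medians of 0.03 and 0.09. That is 33.3% and 53.3% called, against 9.83% and 6.33% of all features. The 10 became 6 without WT 6 h replicate 1 or 2 or ΔCRE 6 h replicate 2, and the 16 became 8 without WT 24 h replicate 1 and 9 without ΔCRE 24 h replicate 2. IL1B was at 52.8 and 47.1 FPKM in ΔCRE cells at 6 h against 167 in both WT libraries (log2 difference -1.72, adjusted p = 2.5e-05), and MMP13, a collagenase, was lower by a log2 difference of -1.63 at 6 h and -0.97 at 24 h (adjusted p = 1.5e-04 and 0.0031). EREG, an EGF receptor ligand, was at 82.1 and 101 FPKM in ΔCRE cells at 6 h against 31.8 and 30.1 (log2 difference 1.53, adjusted p = 1.1e-04), and at 24 h it was higher by 1.18 and IL11 by 0.97 (adjusted p = 5.1e-04 and 1.6e-04). These differences of IL1B, MMP13, EREG and IL11 were called without any 1 library. Many of these genes are also targets of NF-κB or ETS factors, and which factor acts on them was not tested.

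**Figure D4:**
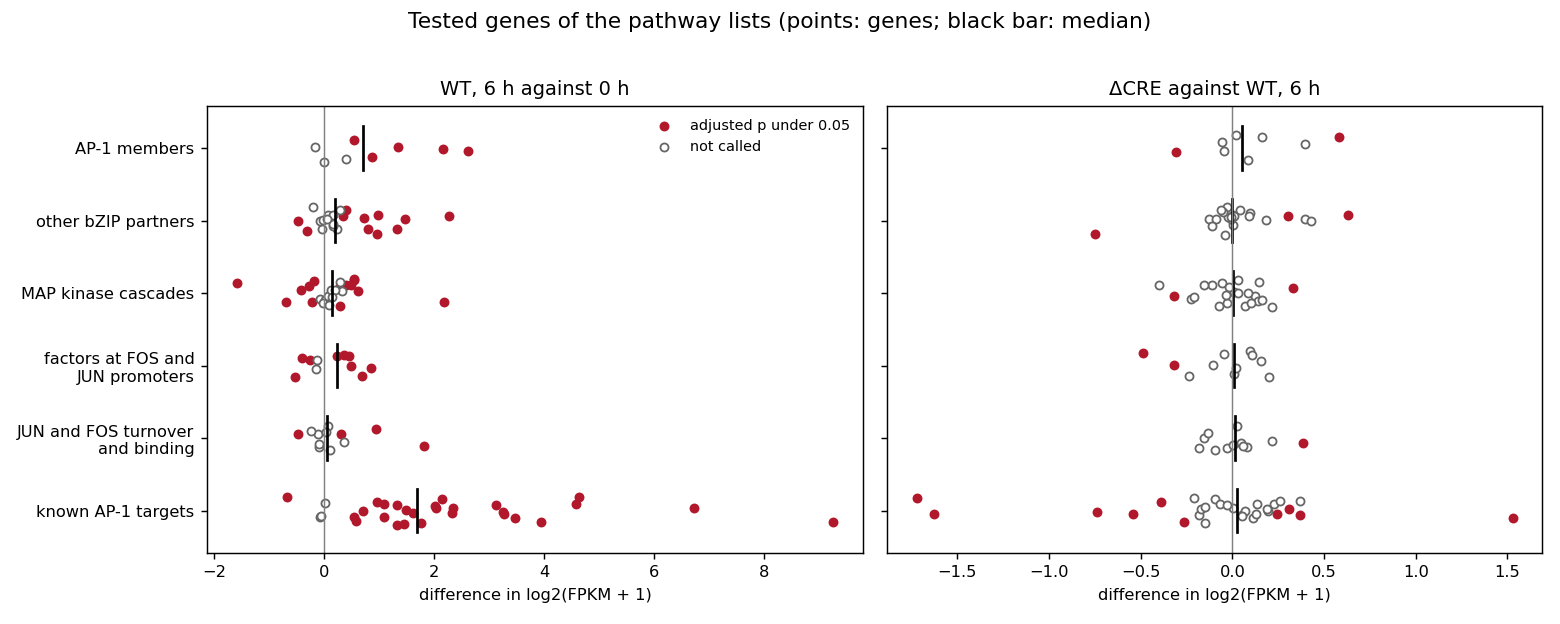
Differences in log2(FPKM + 1) (x axes) of each tested gene of the AP-1 members and the 5 pathway lists (y axis) in WT cells at 6 h against 0 h (left) and in ΔCRE against WT cells at 6 h (right). Points are genes, filled where the adjusted p is under 0.05, with vertical scatter for legibility, and black bars are medians. On the left the target genes reach a log2 difference of 9.25 (IL8) with a median of 1.69, and on the right the medians of the members and of all 5 lists lie near 0.

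Across the 11 libraries the members followed different courses. FOSL1 and BATF3 had a Pearson r of 0.97 on log2(FPKM + 1), FOSL1 and JUN 0.92, and ATF3 and BATF3 0.90. FOSL2 and JUND ran opposite, with an r of -0.93, and FOSL1 and FOSL2, the 2 abundant FOS genes, were nearly unrelated at 0.09. Among all tested features those most like FOSL1 were KDM2A (0.996), NFKB1 (0.995) and TNFAIP3 (0.994), among those most like JUNB were OPTN (0.996) and HTRA2 (0.994), and those most like FOSL2 were MPRIP (0.993), AMOTL2 (0.992) and TGFBI (0.991). For BATF3, the nearest were SLC52A2, PPP1R15A and ABTB2, each at 0.985. For FOS the nearest feature, ZSWIM8-AS1, reached 0.966. These are descriptions over libraries that fall into 6 conditions and share treatment times, so an r near 1 mainly says that 2 genes had the same order of conditions.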

How the data were processed

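RNA-sequencing covered 6 conditions (MDA-MB-231 cells, WT or ΔCRE, after 0, 6 or 24 h with PMA/Ionomycin), each with 2 libraries. Samples were grouped by the genotype, time and replicate number in their labels. The authors made stranded mRNA libraries, aligned them to hg19 by TopHat 2.0.12 and deposited Cufflinks 2.2.1 FPKM values for 24331 features (versions from the paper's methods). The gene annotation and any scaling between libraries are not given in the sources used here. All 12 columns were used. The names of 2 columns (ΔCRE 6 h and 0 h, replicate 2) have a digit in place of a letter and were matched through the upper header line. FPKM keeps no fragment numbers, so depth is unknown and no counting interval was computed.

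Values were tested as log2(FPKM + 1) with limma 3.58.1 in R 4.3.3 (lmFit, eBayes with trend) in 1 model of 6 groups over 11 libraries, without ΔCRE 0 h replicate 1, with 5 residual degrees of freedom. The 11256 features with a mean of at least 1 FPKM were tested in 7 contrasts, with Benjamini-Hochberg adjustment over all tested features within each contrast. A gene was called at an adjusted p under 0.05. All printed p-values come from these fits, are two-sided and are adjusted unless called unadjusted. Fold differences are ratios of mean FPKM. Simulated data had 11256 features, 200 of them shifted by 1 on the log2 scale. From 92.5% to 96.5% of the shifted features were recovered over 6 contrasts, and between 1.5% and 4.1% of calls were false. The simulated noise was normal and independent between libraries, as the model assumes. Far fewer features were shifted than were called between times in the data. These shares therefore check the fit and do not give the false share among the calls in the data. The members' differences between ΔCRE and WT cells were smaller (-0.31 to 0.58), and recovery at such sizes was not simulated. The alternatives were another pseudocount, filter, scaling (quantile, TPM) or variance model, separate fits, the replicate number as a block, all 12 libraries, and leaving out each of 11 libraries. Same-numbered samples deviated together weakly or not at all (r of deviations from -0.068 to 0.202 over 10 pairs of groups). Python 3.11.15 with pandas 2.3.3 and numpy 2.4.6 made the tables.

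The members and lists were chosen with earlier results of these data known, so their counts are descriptions beside the share of all features called. Named are all members, ETS1, per list the up to 4 (WT at 6 h) or 3 (ΔCRE against WT at either time) genes of largest absolute log2 difference among those called without overlap between libraries, and per member the 3 features of highest Pearson r. Promoter sequences are from RefSeq (GRCh38.p14). Cuffdiff was not run. A few genes that these rules name are not reported here.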

Additional observations from a re-analysis of the deposited data

Results flagged for a closer look

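The library labelled ΔCRE 0 h replicate 1 entered no test. In FPKM as deposited it lay above all 11 other libraries for 4 of the 9 members. Its sum of FPKM was 1423335, against 566255 to 651080 in the other 11, and the levels given here are not scaled by it. Such scaling would lower its values relative to the others. The ratio of its sum to any other sum is above the ratios of JUN and ATF3 given below. It is under those of FOS and JUND. Divided by the sums, FOS and JUND would still be highest in this library, and JUN and ATF3 would not. FOS was at 50.5 FPKM there, 16.8 times the highest of the other 11 libraries (3.01). JUND was at 139 FPKM, 5.09 times the highest other value (27.3), JUN at 71.8 FPKM, 2.05 times the highest other value (35.0), and ATF3 at 10.98 FPKM, 1.69 times the highest other value (6.49). FOS made up 31.1% of the FOS family sum there. JUNB was at 68.8 FPKM, above the other 3 libraries at 0 h (12.9 to 13.8) and within the range of those at 6 and 24 h (66.6 to 92.2). FOSL1, at 96.3 FPKM, and FOSL2, at 15.1, were below the other 3 libraries at 0 h. In the same library the summed FPKM of 13 gut epithelium markers was 15434, against 272 to 515 in the other 11, where KRT8 carried most of it, and the sum of 10 markers of other cell types was 141, against 1.61 to 4.25. EPCAM was at 1139 FPKM there, against 2.02 to 3.38, while CDX1, CDX2 and VIL1, defining gut genes, were at 48.5, 55.3 and 32.3 FPKM there and listed at 0 in the other 11. The 5 genes known to be high in MDA-MB-231 summed to 1496 FPKM there, against 2149 to 3337 in the other 11. VIM carried most of that sum, at 1199.5 FPKM there against 1543 to 2539. MSN was also below the other 11 (56.2 FPKM, against 166 to 335), while CD44, CAV1 and AXL lay within their range. The part of these markers in the AP-1 values was not tested.

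Among the known AP-1 targets, 3 genes differed between ΔCRE and WT cells in their change from 6 h to 24 h by the test of that difference, of which 2 are given (limma interaction, Benjamini-Hochberg adjusted), with 18 called of 11256 features. IL1B went up by a log2 difference of 0.97 in WT and 2.07 in ΔCRE cells (difference 1.10, SE 0.13, adjusted p = 0.0275). IL11 went down by a log2 difference of -2.19 in WT and -1.53 in ΔCRE cells (difference 0.66, SE 0.091, adjusted p = 0.0468). These 2 calls were weak: leaving out any 1 of the 4 WT libraries at 6 and 24 h, ΔCRE 6 h replicate 2 or either ΔCRE library at 24 h lost each of them, with adjusted p up to 0.125 for IL1B and 0.204 for IL11. IL11 was also lost without ΔCRE 6 h replicate 1 or either WT library at 0 h. Among the other alternatives, IL1B was lost with a pseudocount of 0.1 (adjusted p = 0.184) or no filter (0.0600). IL11 was lost with no filter (adjusted p = 0.0765), separate fits (0.0827) or eBayes without trend (0.0770). Both were lost with 12 libraries.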

How the results depend on the processing

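Of 1106 values of single members under the alternatives, 1038 kept their side of the threshold (19 of them, not called, with the other sign), 59 were no longer called, 9 became called and 0 called values turned around. The number of members called between times changed most when all 12 libraries were fitted, the outlying one included: 3 in place of 5 in WT cells at 6 h against 0 h, 2 in place of 6 at 24 h against 0 h, and 1 in place of 7 at 24 h against 6 h in WT as in ΔCRE cells. Between ΔCRE and WT cells at 6 h (2 called) it was 1 with a mean of at least 5 FPKM, where ATF3 was not tested, and 0 with separate fits or 12 libraries. At 24 h (1 called) it was 0 with no filter, separate fits, eBayes without trend or 12 libraries, and 2, FOSL1 added, with quantile normalization, TPM or the replicate block. The block also called FOSL2 in WT cells at 6 h against 0 h (adjusted p = 0.0212) and changed no other call of a member. Whether the replicate numbers pair the samples is not settled by these values. With the block, the features called between ΔCRE and WT cells were 1805 in place of 1107 (6 h) and 1407 in place of 712 (24 h). With separate fits they were 364 and 132. With 12 libraries the features called in the 7 contrasts were 857, 1221, 582, 845, 20, 17 and 0, in place of 4993, 6151, 5267, 5586, 1107, 712 and 18. Without 1 library at a time the features called between ΔCRE and WT cells were 321 to 1097 at 6 h and 165 to 717 at 24 h, and there were 5 to 7, 6 to 7, 5 to 7, 6 to 7, 0 to 2, 0 to 1 and 0 to 0 members called in the 7 contrasts (WT 6 h and 24 h against 0 h, WT and ΔCRE 24 h against 6 h, ΔCRE against WT at 6 h and 24 h, interaction). With the outlying library the mean share at ΔCRE 0 h was 61.9% for FOSL1 in the FOS family and 26.1% for JUNB in the JUN family.

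Listed genes called between ΔCRE and WT cells at 6 h ranged over the alternatives without the outlying library from 1 to 5 (other bZIP genes, 3 called), 0 to 3 (kinases, 2), 1 to 3 (promoter factors, 2), 0 to 2 (turnover, 1) and 6 to 11 (targets, 10), and at 24 h from 1 to 5 (kinases, 3) and 9 to 20 (targets, 16, or 8 to 18 with 1 more library left out). With 12 libraries the targets called in WT cells at 6 h were 21 in place of 27 and the kinases 3 in place of 14.

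TPM moved the median of all features by a log2 value of -0.118 in WT cells at 6 h against 0 h (-0.00 as deposited). The share of higher calls went from 52.5% to 34.8% there, from 43.7% to 65.4% at 24 h against 6 h in WT and from 44.6% to 62.0% in ΔCRE cells, and from 37.2% to 24.7% between ΔCRE and WT cells at 24 h. With TPM or quantile normalization FOSL2 was called lower in WT cells at 6 h (-0.30 and -0.26, adjusted p = 0.0030 and 0.0059), and JUNB was not called between 6 and 24 h in ΔCRE cells after quantile normalization (-0.18, adjusted p = 0.0765). The cause of these moves was not tested. Unknown depth limits FOS, FOSB and ATF3 most, near 1 FPKM.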
